A study of Arabidopsis thaliana with 9 samples.

Results

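The genes described are the tau and phi glutathione S-transferases of Arabidopsis thaliana, named GSTU1 to GSTU28 and GSTF2 to GSTF14. They were taken as a family by gene name: 41 loci, of which 28 belong to the tau class and 13 to the phi class. A probe was matched to 40 of them through its transcript accession, the exception being GSTU21. Of these 40, 37 were tested among 23058 genes in all, 26 tau and 11 phi. The remaining 3, GSTU14, GSTF5 and GSTF13, were not above the background on all arrays of any group.

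Glutathione S-transferases join the tripeptide glutathione to reactive or toxic molecules, and the conjugates are then pumped into the vacuole and broken down. The tau and phi classes occur in plants and make up most of the plant family. Many members are known for rapid induction by herbicides, safeners, pathogens and oxidative stress, while others have settled places in metabolism, in glucosinolate and camalexin synthesis or in the transport of anthocyanins to the vacuole.

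The study compared RNA of whole Col-0 wild-type seedlings, 4 weeks old, on 1-colour Agilent oligo microarrays, to set the response to salt beside the response to abscisic acid (ABA), the stress hormone of plants. The groups were 150 mM NaCl for 6 h, 10 μM ABA for 6 h and unstressed control seedlings collected in parallel, with 3 arrays each. The control samples are labelled as water (H2O) at 6 h. Roots and shoots were harvested together, and the seedlings of a treatment were pooled before being divided into 3 portions, so the arrays may differ by less than single plants do. With 3 arrays against 3 there are 10 distinct splits, and an exact permutation test could not give a p under 0.1.

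Between 68.9% and 72% of the spots on an array were well above the background, and no spot was saturated. The 3 NaCl arrays lay on 1 slide, scanned 235 days before the rest, so scan day and slide cannot be told apart from NaCl in any comparison with NaCl. The ABA arrays lay on 2 other slides and the control arrays on 1, so slide and treatment cannot be told apart in ABA against control either. Control replicates 1 and 2 had 992 and 1141 spots marked non-uniform, against 1 in control replicate 3, 1 to 7 on the ABA arrays and 205 to 223 on the NaCl arrays. The genes RD29B, RAB18 and HAI1, chosen as markers of both treatments, were all called higher in NaCl. RD29B and HAI1 were also called higher in ABA, where RAB18 had a log2 fold change of 2.09 (adjusted p = 0.0705, limma). The shoot markers RBCS1A, LHCB2.1, RCA and CA1 were above background on every array, and of 10 root markers 6 were above background on all NaCl arrays, 4 on all ABA arrays and 5 on all control arrays. IRT1, a root iron transporter, was not above background on any array.

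In salt-treated seedlings every call in the phi class was a fall, and the calls in the tau class went both ways. Compared with control, 5 of the 11 tested phi members were lower in NaCl and none was higher, with falls between 2.51-fold for GSTF4 and 11.8-fold for GSTF11. Of the 26 tested tau members, 6 were higher, led by GSTU2, and 5 were lower, led by GSTU20. To be called, a gene needed a difference of at least 2-fold and a p under 0.05 after Benjamini-Hochberg adjustment over all genes, in a limma fit of all 9 arrays. The 6 include GSTU2 and GSTU15, which entered the test through NaCl alone, the group where they were high. Only 1 control array of GSTU2 and none of GSTU15 was well above background. With the filter on all 9 arrays neither was tested, and 4 of 22 tau members were higher and 5 lower. Among all genes tested, 9.91% were called higher and 13.4% lower in NaCl, beside 16.2% and 27% of the 37 tested members. The methods' t-test with the same adjustment called 0 members higher and 2 lower in NaCl, and at an unadjusted p 4 higher and 9 lower. The shares of all genes called by this t-test or with the filter on all 9 arrays are not given here. This holds for each comparison, so those member counts cannot be read against them.

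The median log2 fold change in NaCl was 0.42 over the tau members and -1.33 over the phi members, against -0.11 over all genes. With the filter on all 9 arrays, which leaves out GSTU2, GSTU15, GSTU22 and GSTU25, the tau median was 0.02. Of the phi members, GSTF12 and GSTF14 also entered the test without being above background on all arrays of each group. The NaCl and control arrays did not overlap in 22 of the 37 members (59.5%), and in 53% of all genes. In RNA of whole seedlings, less RNA per cell and fewer cells of a type cannot be told apart.

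**Figure D1:**
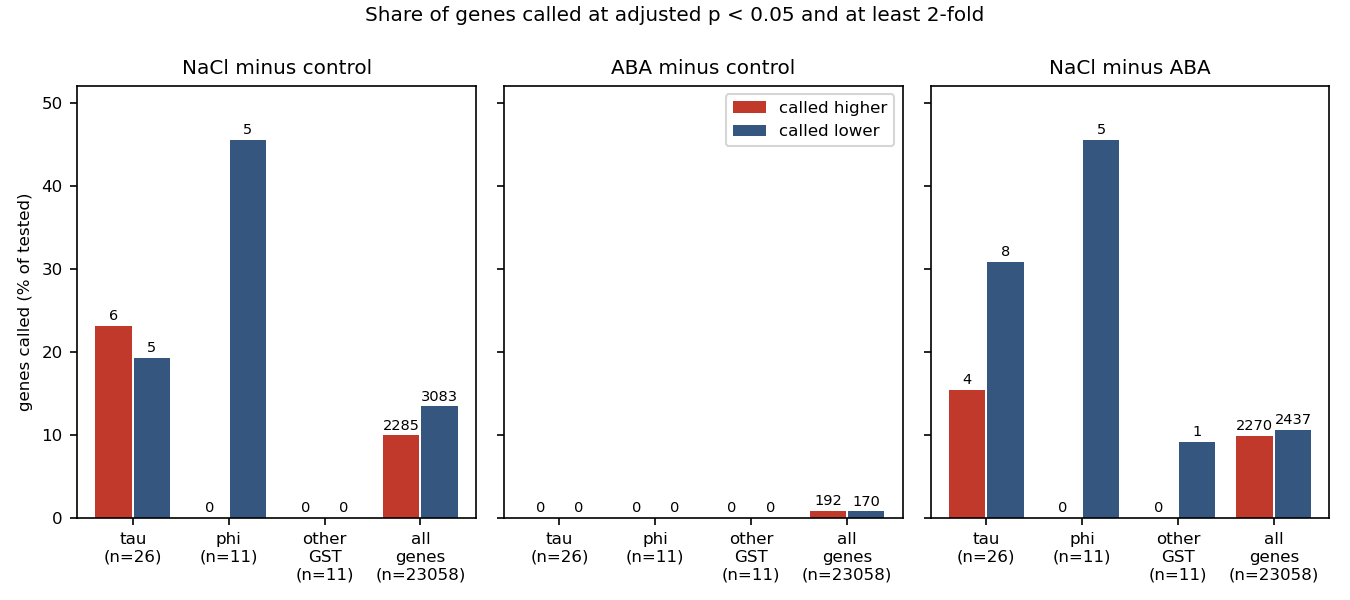
Bars give the percentage of tested tau, phi and other glutathione S-transferase genes, and of all genes, that were called higher (red) or lower (blue) in each of the 3 comparisons, with the number of genes above each bar. In NaCl minus control the phi class has 5 genes called lower and 0 higher, the tau class has 6 higher and 5 lower, and neither class has a call in ABA minus control.

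Levels below are log2 normalized intensities of the probe that stands for the gene. They can be compared between arrays for a gene but not between genes, whose probes differ.

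**Figure D2:**
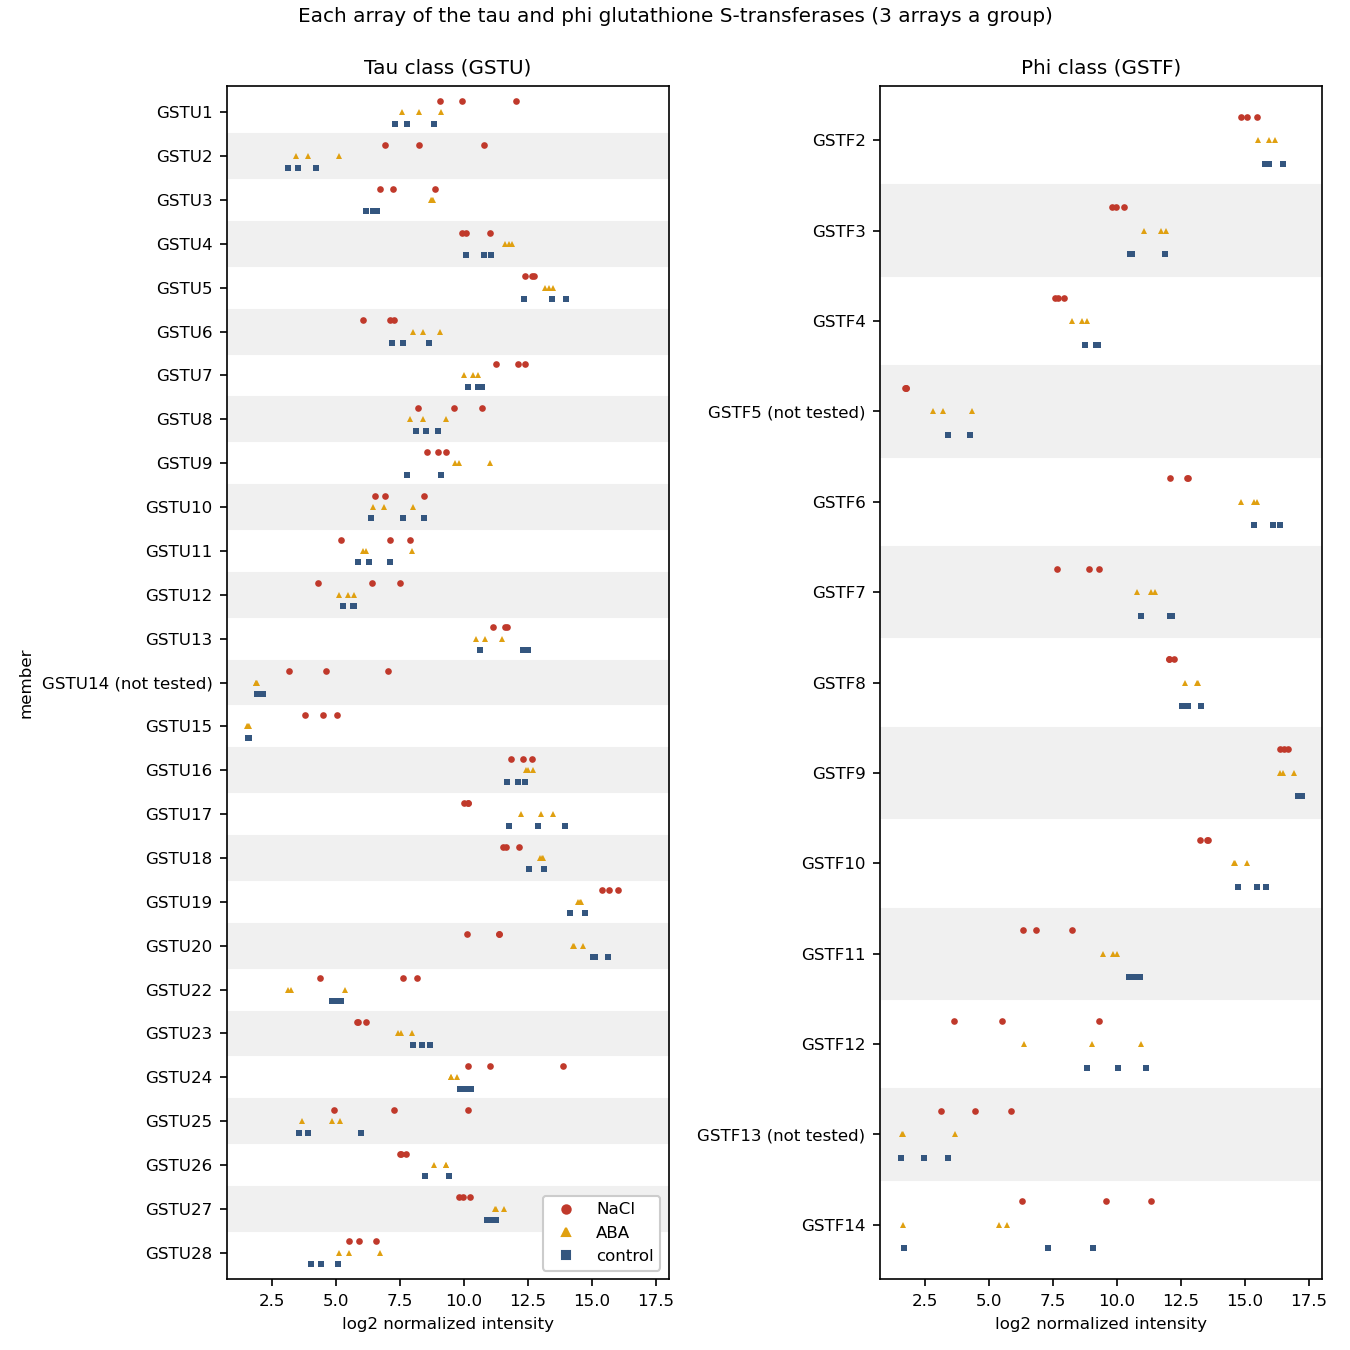
Each point is the log2 normalized intensity (horizontal axis) of 1 member on 1 array, with the NaCl arrays as red circles, the ABA arrays as ochre triangles and the control arrays as blue squares. The NaCl points of GSTU2, GSTU7 and GSTU15 lie above all others of their row, and those of GSTU17, GSTU20, GSTF6, GSTF7, GSTF10 and GSTF11 lie below them.

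The largest run of neighbours, GSTU1 to GSTU7 on chromosome 2, had 7 tested members, of which 3 were called higher in NaCl and none lower. GSTU2 (AT2G29480) had levels of 8.24, 10.79 and 6.92 on the NaCl arrays, 5.11, 3.91 and 3.42 on the ABA arrays and 4.22, 3.49 and 3.12 on the control arrays. All NaCl arrays stood above every other array, and only 1 ABA and 1 control array were well above background. The log2 fold change in NaCl was 5.04 ± 0.91 (SE; adjusted p = 0.00419), a difference taken against control values that were mostly at background.

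GSTU1 (AT2G29490) had levels of 9.94, 12.03 and 9.05 on the NaCl arrays, 9.09, 8.25 and 7.56 on the ABA arrays and 8.83, 7.79 and 7.30 on the control arrays. NaCl replicate 2 was far above the rest, while NaCl replicate 3 was just under the highest ABA array. Its log2 fold change in NaCl was 2.37 ± 0.77 (adjusted p = 0.0414), a call that held in 3 of the 9 fits that each left out 1 array. It was kept without NaCl replicate 3, ABA replicate 1 or control replicate 1, and the highest adjusted p, 0.118, came without control replicate 3.

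GSTU7 (AT2G29420), a member known to respond to salicylic acid, had levels of 12.13, 12.40 and 11.26 on the NaCl arrays, 10.34, 10.54 and 10.02 on the ABA arrays and 10.71, 10.56 and 10.15 on the control arrays. The NaCl arrays were all above the others, which overlapped. It was higher in NaCl than in control by 1.45 ± 0.31 on the log2 scale (adjusted p = 0.00795), and the call held whichever array was left out.

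The 4 genes lying between GSTU7 and GSTU2 in this run were not called in NaCl against control. GSTU3 (AT2G29470) stood at 7.21, 8.86 and 6.70 on the NaCl arrays, 8.76, 8.79 and 8.69 on the ABA arrays and 6.44, 6.19 and 6.61 on the control arrays. Every treated array was above every control array, and the ABA arrays were the tightest of the 3 groups. GSTU4 (AT2G29460) read 9.94, 11.01 and 10.10 in NaCl, 11.62, 11.88 and 11.78 in ABA and 11.05, 10.10 and 10.77 in control. Here the ABA arrays were the highest and the other groups overlapped. GSTU6 (AT2G29440) read 6.03, 7.27 and 7.13 in NaCl, 9.07, 8.39 and 8.01 in ABA and 7.61, 8.65 and 7.19 in control, where NaCl lay under every ABA array and overlapped control. GSTU5 had a log2 fold change of -0.66 in NaCl (adjusted p = 0.181).

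The next run, GSTU23, GSTU22, GSTU21, GSTU20 and GSTU19, stands without a gene in between on chromosome 1, and its members went in opposite directions in NaCl. GSTU20 (AT1G78370), which takes part in glutathione conjugation during aliphatic glucosinolate synthesis and also binds the jasmonate-conjugating enzyme JAR1, fell most of all members. Its levels were 10.12, 11.37 and 11.36 on the NaCl arrays, 14.30, 14.27 and 14.65 on the ABA arrays and 15.04, 15.64 and 15.15 on the control arrays. The 3 groups did not overlap, with NaCl lowest and control highest. In NaCl this was a log2 fold change of -4.32 ± 0.35 (adjusted p = 0.000200), a 20-fold fall.

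GSTU19 (AT1G78380), a safener-induced enzyme whose overexpression is known to raise tolerance of salt and drought, lies next to GSTU20 and rose. Levels were 15.67, 16.03 and 15.39 on the NaCl arrays, 14.59, 14.53 and 14.46 on the ABA arrays, and 14.14 and 14.74 on control replicates 1 and 3, the spot on control replicate 2 having been left out as marked non-uniform or outlying. NaCl was above both other groups on every array. The rise was 1.25 ± 0.25 on the log2 scale (adjusted p = 0.00810) by this brightest probe, while the other 2 probes of the gene gave 0.44 and 0.52, and the mean of the probes, at 0.89, was not called. Without control replicate 1 it was 0.95 and under 2-fold.

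GSTU23 (AT1G78320) had levels of 5.86, 6.17 and 5.84 on the NaCl arrays, 7.54, 7.43 and 7.95 on the ABA arrays and 8.35, 8.69 and 8.01 on the control arrays. Its groups were in the same order as those of GSTU20 and did not overlap. Its log2 fold change in NaCl was -2.39 ± 0.22 (adjusted p = 0.000327). GSTU22, which lies between them, had a log2 fold change of 1.70 ± 0.99 that did not pass the test (adjusted p = 0.200).

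**Figure D3:**
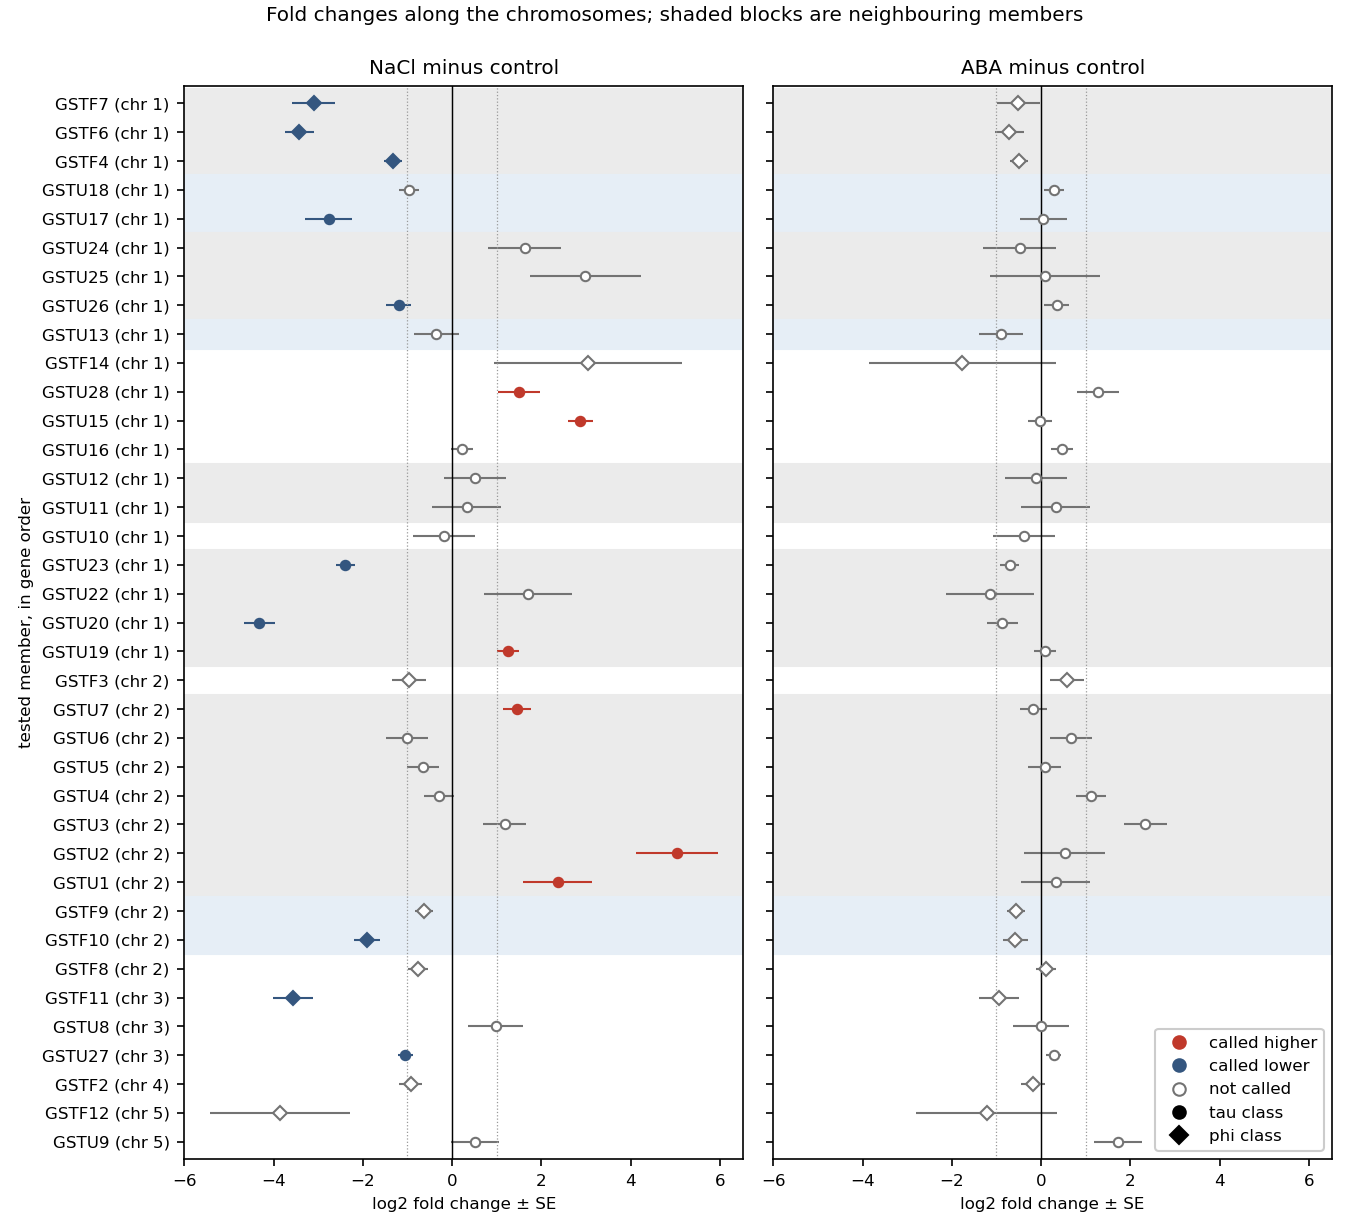
Points are log2 fold changes with their SE (horizontal axis) for the 37 tested members in gene order along the chromosomes, with circles for the tau and diamonds for the phi class, filled red or blue where called higher or lower and open otherwise. Shaded blocks hold neighbouring members: GSTU19 (1.25) and GSTU20 (-4.32) lie side by side with opposite signs in NaCl minus control, and in ABA minus control no point is filled.

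GSTU24, GSTU25 and GSTU26 also adjoin on chromosome 1, and here too the signs differed. GSTU24 and GSTU25, enzymes known for the detoxification of the explosive TNT, had log2 fold changes of 1.62 (adjusted p = 0.143) and 2.99 (adjusted p = 0.0880) in NaCl and were not called. GSTU26 (AT1G17190) fell by 1.20 ± 0.27 on the log2 scale (adjusted p = 0.0109). It had levels of 7.72, 7.50 and 7.55 on the NaCl arrays, 9.31, 8.82 and 9.30 on the ABA arrays and 9.41, 8.47 and 8.48 on the control arrays. The NaCl arrays were close together and below all others. Without control replicate 1 its log2 fold change was -0.88, under 2-fold.

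GSTU17 (AT1G10370), known from mutants as a brake on tolerance of drought and salt, fell by 2.76 ± 0.53 on the log2 scale in NaCl (adjusted p = 0.00523). The NaCl arrays read 10.18, 10.15 and 10.01, the ABA arrays 13.02, 13.49 and 12.23 and the control arrays 13.96, 12.89 and 11.77. NaCl was the tightest and lowest group, while ABA and control overlapped. The 3 probes of the gene had log2 fold changes between -2.98 and -2.50.

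Its neighbour GSTU18 (AT1G10360) read 11.63, 11.52 and 12.17 in NaCl, 13.04, 13.09 and 12.98 in ABA and 13.12, 12.56 and 12.55 in control. The NaCl arrays were again the lowest. The log2 fold change of -0.97 (adjusted p = 0.0105) was just under 2-fold, and so it was not called against control.

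Among tau members that stand apart from others, GSTU15 (AT1G59670) was well above background in NaCl alone. Its levels were 4.49, 5.04 and 3.80 on the NaCl arrays, against 1.52, 1.55 and 1.57 on the ABA arrays and 1.54, 1.59 and 1.59 on the control arrays. No array of ABA or control was well above background, so those values are only a ceiling. Set against the lowest signal called above background on each array, GSTU15 was at least 1.65-fold higher in NaCl than in control (adjusted p = 0.000384 by the fit), a bound under 2-fold. With normexp background correction its log2 fold change was 0.44 and it was not called. GSTU14 (AT1G27140) was alike in pattern and was not tested, with NaCl levels of 7.04, 4.60 and 3.15, of which 2 were well above background, against ABA levels of 1.86, 1.88 and 1.89 and control levels of 1.98, 2.14 and 1.91. Set against the same lowest signals, it was 2.31-fold higher in NaCl than in control. The NaCl mean includes an array not well above background, so this is not a strict minimum.

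GSTU28 (AT1G53680) read 6.55, 5.90 and 5.52 in NaCl, 5.12, 5.49 and 6.72 in ABA and 5.05, 4.42 and 4.03 in control. All treated arrays were above all control arrays, with ABA replicate 3 the highest. The rise in NaCl was 1.49 ± 0.47 (adjusted p = 0.0360) and held in 5 of 9 fits that left out an array. It was lost without NaCl replicate 1 or 2 and without control replicate 2 or 3, with adjusted p between 0.0797 and 0.106. GSTU27 (AT3G43800) read 9.83, 9.98 and 10.23 in NaCl, 11.24, 11.57 and 11.23 in ABA and 11.04, 11.25 and 10.90 in control, so that NaCl lay below every other array. It fell by 1.05 ± 0.17 on the log2 scale in NaCl (adjusted p = 0.00284), and without NaCl replicate 1 or control replicate 2 the fall was under 2-fold.

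The other tau members, GSTU8 to GSTU13 and GSTU16, had log2 fold changes in NaCl between -0.35 for GSTU13 and 0.98 for GSTU8, and none was called. GSTU13 acts with the indole glucosinolate pathway in defence against fungi. Its 3 probes gave -0.35, -0.92 and -1.63.

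In the phi class the neighbours GSTF4, GSTF6 and GSTF7 on chromosome 1 were all called lower in NaCl. GSTF6 (AT1G02930), which joins glutathione to an indole precursor in the synthesis of the phytoalexin camalexin, had levels of 12.80, 12.73 and 12.08 on the NaCl arrays, 14.87, 15.49 and 15.38 on the ABA arrays and 16.40, 15.38 and 16.10 on the control arrays. NaCl was below the other groups, which overlapped. The log2 fold change was -3.42 ± 0.32 (adjusted p = 0.000342), and the call was kept under each of the 23 alternatives tried.

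GSTF7 (AT1G02920), its near copy, had levels of 8.89, 9.31 and 7.65 in NaCl, 10.79, 11.51 and 11.33 in ABA and 12.14, 10.96 and 12.06 in control, with NaCl again lowest. It was 8.59-fold lower in NaCl than in control (adjusted p = 0.00226). Whether the probes of GSTF6 and GSTF7 tell the copies apart was not tested, and the same holds for GSTF2 and GSTF3. GSTF4 (AT1G02950) read 7.58, 7.93 and 7.70 in NaCl, 8.26, 8.62 and 8.82 in ABA and 8.75, 9.26 and 9.18 in control. The NaCl arrays were lowest here too. It fell by 1.33 ± 0.21 on the log2 scale (adjusted p = 0.00228).

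GSTF5 (AT1G02940), the remaining gene of that run, was not tested. It read 1.75, 1.74 and 1.72 in NaCl, 2.79, 3.21 and 4.33 in ABA and 3.38, 3.41 and 4.24 in control. No NaCl array was well above background, and 1 ABA array and 1 control array were, so no fold is given. Of 3 genes of camalexin synthesis, CYP71A13 was called lower in NaCl, by 4.41 on the log2 scale (adjusted p = 0.00657), with only 1 NaCl array well above background, while PAD3 had -1.66 (adjusted p = 0.0683) and CYP71A12 had -0.17.

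GSTF10 (AT2G30870), known as an early dehydration gene, read 13.27, 13.55 and 13.51 in NaCl, 14.64, 14.58 and 15.10 in ABA and 14.74, 15.47 and 15.84 in control. NaCl was below both groups. It fell by 1.91 ± 0.28 on the log2 scale in NaCl (adjusted p = 0.00192). GSTF9, next to it on chromosome 2, had a log2 fold change of -0.63 by its brightest probe, with control replicate 1 left out as non-uniform or outlying, and passed the adjusted p (0.0476) but not 2-fold. Its other 2 probes gave -1.33 and -1.70.

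GSTF2, GSTF3 and GSTF8 were also lower on every NaCl array than on every control array without being called, at -0.93, -0.97 and -0.76. GSTF2 is known to bind camalexin and other small ligands, and GSTF8 is a long-studied marker of early defence and oxidative signals. The brightest probe of GSTF2 gave the smallest fall, the other 3 giving -1.86 to -2.15, and with the mean of the probes the gene was called lower (-1.76, adjusted p = 0.00531). GSTF3 (AT2G02930) read 10.29, 9.82 and 9.96 in NaCl, 11.07, 11.72 and 11.92 in ABA and 10.53, 10.59 and 11.87 in control. NaCl was lowest and control replicate 3 stood with the ABA arrays.

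GSTF11 (AT3G03190), the phi enzyme of aliphatic glucosinolate synthesis, had levels of 6.85, 8.25 and 6.31 on the NaCl arrays, 9.44, 9.83 and 10.00 on the ABA arrays and 10.71, 10.91 and 10.49 on the control arrays. The order of the groups was that of GSTU20, with no overlap. The log2 fold change in NaCl was -3.57 ± 0.45 (adjusted p = 0.000986). Of 7 other genes of the pathway, 5 were called lower in NaCl, namely CYP79F1 (-4.20), BCAT4 (-3.33), MAM1 (-2.57, with NaCl replicate 1 left out as non-uniform or outlying) and CYP83A1 (-2.18), which lead the chain from methionine to the aldoxime and its oxidation, and SUR1 (-1.47), the lyase that follows the glutathione conjugate. The regulator MYB28 and the glucosyltransferase UGT74B1 had -0.83 and -0.67 and were not called.

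GSTF12 (AT5G17220), the carrier of anthocyanins and proanthocyanidins to the vacuole, varied more than most. It read 3.63, 9.28 and 5.51 on the NaCl arrays, 9.02, 6.36 and 10.94 on the ABA arrays and 8.83, 11.12 and 10.04 on the control arrays. NaCl replicate 2 lay among the other groups while NaCl replicates 1 and 3 were below them. The log2 fold change in NaCl was -3.86 ± 1.57 and was not called (adjusted p = 0.0845), though it was with the mean of its 2 probes (-2.92, adjusted p = 0.0379) and without NaCl replicate 2 (-5.43, adjusted p = 0.0246). Its other probe, the one that passed the filter on all 9 arrays, was also called there (-1.99, adjusted p = 0.0155). Under 18 of the 23 alternatives GSTF12 was not called, and the highest adjusted p was 0.315. The enzymes DFR (-5.67, adjusted p = 0.0455) and LDOX (-5.64, adjusted p = 0.0361) and the regulator TT8 (-3.14, adjusted p = 0.0365) of the anthocyanin pathway were called lower in NaCl and the regulator PAP1 higher (1.91, adjusted p = 0.0432). Only 1 NaCl array was well above background for DFR and LDOX, and 2 were for TT8, so these differences were taken against values partly at background.

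DFR had the same order of arrays as GSTF12 within each group, at 1.53, 7.61 and 3.24 in NaCl, 8.49, 5.51 and 11.37 in ABA and 7.82, 11.45 and 10.11 in control. NaCl replicate 2, ABA replicate 3 and control replicate 2 were the high arrays for both genes. Of the rest of the list, TT8 also had the order of GSTF12 in every group. LDOX and UF3GT, the latter not tested, had it in ABA and control but not in NaCl. PAP2 had it in NaCl alone, and PAP1 in no group.

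**Figure D4:**
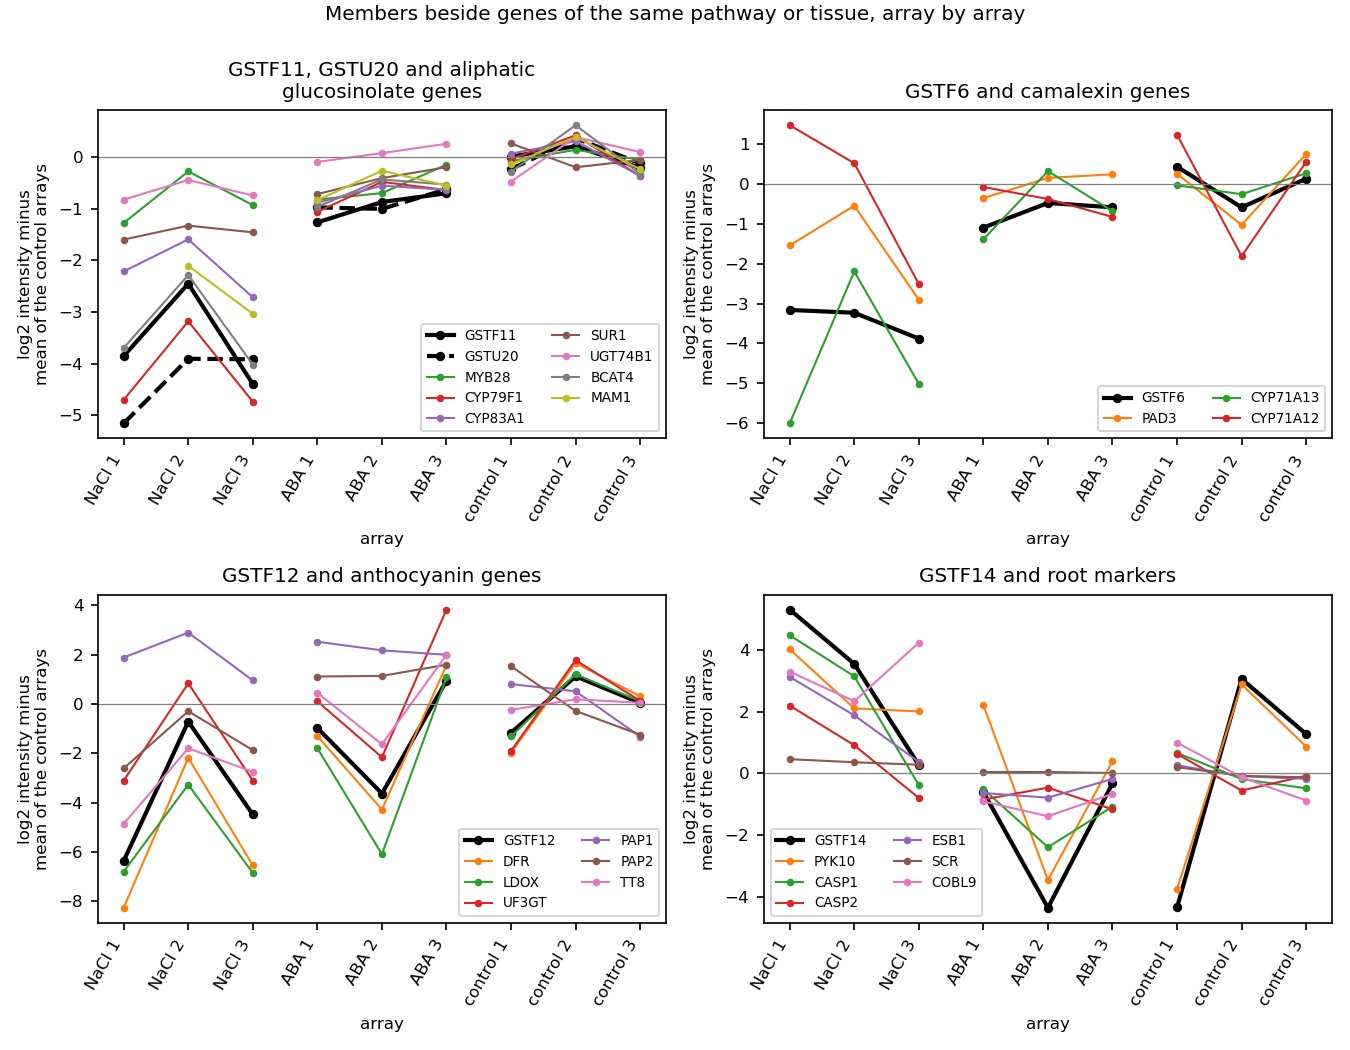
Each panel plots log2 intensity minus the mean of the control arrays (vertical axis) on each of the 9 arrays, with members in black (GSTU20 dashed) and genes of the same pathway or tissue in colour. Lines only help to follow a gene within a group. On every NaCl array GSTF11 and GSTU20 lie at -2.45 or lower, GSTF12 and DFR have the same order of arrays within each group, and ABA replicate 2 and control replicate 1 are the lowest arrays of both GSTF14 and PYK10.

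GSTF14 (AT1G49860), a diverged phi member, spread over the widest range. It read 11.33, 9.56 and 6.28 on the NaCl arrays, 5.40, 1.65 and 5.69 on the ABA arrays and 1.66, 9.08 and 7.29 on the control arrays. The summed intensity of the 10 root markers was 33500, 10200 and 8690 on the NaCl arrays, 9390, 1340 and 3480 on the ABA arrays and 1690, 14200 and 4370 on the control arrays. PYK10, a root beta-glucosidase, made up 11.9% of that sum on ABA replicate 2, 7.63% on control replicate 1 and 66.2% to 91.8% on the other arrays. ABA replicate 2 and control replicate 1 were the lowest arrays for both GSTF14 and PYK10, and NaCl replicate 1 was the highest. The other 5 tested root markers went the other way in control, where control replicate 1 was their highest array. GSTF14 had a log2 fold change of 3.05 in NaCl (adjusted p = 0.277), with NaCl and control arrays that overlapped. GSTF13 (AT3G62760) was not tested. It read 5.84, 4.45 and 3.12 in NaCl, 2 arrays being well above background, against 1.64, 3.65 and 1.59 in ABA and 3.40, 1.55 and 2.46 in control, which were not. Compared as GSTU14 was, it was 1.69-fold higher in NaCl than in control, again not a strict minimum.

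In ABA-treated seedlings no member of either class was called against control by limma, while 0.833% of all genes were called higher and 0.737% lower. At an unadjusted p under 0.05 and at least 2-fold, 4 members were higher and none lower, beside 2.65% of all genes higher and 2.84% lower. These were the tau members GSTU3, GSTU4, GSTU9 and GSTU28. The methods' t-test called 1 member higher at an unadjusted p and none after adjustment. The ABA and control arrays did not overlap in 10 of the 37 members (27%), and in 29.5% of all genes. The median log2 fold change was 0.09 over the tau and -0.56 over the phi members, against -0.11 over all genes.

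GSTU3 came nearest to a call in ABA, its arrays at 8.69 to 8.79 lying above the control arrays at 6.19 to 6.61. The log2 fold change was 2.33 ± 0.48 (adjusted p = 0.0565), a 5.04-fold difference. It was not called under 14 of the 24 alternatives and was called under the others, among them when the fit held only ABA and control (adjusted p = 0.00725), when NaCl replicate 2 (adjusted p = 0.00587) or NaCl replicate 3 (adjusted p = 0.0368) was left out of the common fit, and with the authors' normalized values (2.47, adjusted p = 0.0111). Over all alternatives its adjusted p lay between 0.00276 and 0.402. GSTU9 (AT5G62480) read 8.99, 9.31 and 8.57 in NaCl, 11.04, 9.82 and 9.63 in ABA, and 7.77 and 9.09 on control replicates 1 and 3, the spot on control replicate 2 being left out for the same reason as that of GSTU19. ABA was above the other groups on every array. Its log2 fold change in ABA was 1.73 ± 0.54 (adjusted p = 0.155).

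GSTU4, with 1.12 ± 0.33 (adjusted p = 0.129), and GSTU28, with 1.28 ± 0.47 (adjusted p = 0.197), also had every ABA array above every control array. GSTF14 had the largest fall by size, at -1.76 (adjusted p = 0.709), with ABA and control arrays that overlapped. It entered the test through NaCl alone. All its NaCl arrays lay above its ABA arrays, at 4.81 in NaCl minus ABA, without a call (adjusted p = 0.109). GSTF12 had -1.22 ± 1.57 (adjusted p = 0.734). GSTU20, GSTU23 and GSTF11, low in NaCl, were also below control on every ABA array, at -0.87, -0.71 and -0.94, without passing the test (adjusted p = 0.236, 0.146 and 0.309). These ABA and NaCl values share the same control arrays.

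Set against ABA directly, NaCl differed in 17 of the 37 tested members, with 4 higher and 13 lower. Of all genes, 9.84% were called higher and 10.6% lower in NaCl than in ABA. The methods' t-test after adjustment called 0 members higher and 3 lower. The arrays did not overlap in 24 members (64.9%) and in 52.2% of all genes. By class, 4 tau members were higher and 8 lower, and 5 phi members were lower. The 4 higher were GSTU2 (4.51, adjusted p = 0.00750, with 1 ABA array well above background), GSTU15 (at least 1.52-fold, adjusted p = 0.000501), GSTU7 (1.63, adjusted p = 0.00593) and GSTU19 (1.17, adjusted p = 0.00809). With the filter on all 9 arrays, which GSTU2 and GSTU15 did not pass, 2 of 22 tau members were higher and 8 lower.

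Of the 13 that were lower in NaCl than in ABA, GSTU4 (-1.41, adjusted p = 0.0136), GSTU6 (-1.68, adjusted p = 0.0277), GSTU18 (-1.27, adjusted p = 0.00429) and GSTF3 (-1.55, adjusted p = 0.0165) had no call against control. The others were GSTU17 (-2.80), GSTU20 (-3.45), GSTU23 (-1.69), GSTU26 (-1.55), GSTU27 (-1.33), GSTF6 (-2.71), GSTF7 (-2.59), GSTF10 (-1.33) and GSTF11 (-2.62), with adjusted p between 0.00102 and 0.00934 apart from GSTU20 (adjusted p = 0.000583). GSTU3 had -1.16 (adjusted p = 0.0938), and GSTU1 had 2.04 (adjusted p = 0.0725). GSTU14 and GSTF13, set against the lowest signals called above background, were 2.13-fold and 1.55-fold higher in NaCl than in ABA. These are not strict minima, as each NaCl mean includes an array not well above background. With normexp background correction GSTU23 had -0.87 in NaCl minus ABA, GSTU15 had 0.37 and GSTU19 had 0.96, and none of them was called. GSTU19 was also not called with the mean of its probes (0.80) or without scaling (0.22). GSTU7 was not called without scaling (0.75). The call of GSTU6 was lost without NaCl replicate 1, ABA replicate 1 or ABA replicate 2, with an adjusted p of up to 0.0879. That of GSTF3 was lost without NaCl replicate 2, ABA replicate 2 or ABA replicate 3, with an adjusted p of up to 0.0589.

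The tau members differed among the NaCl arrays themselves. NaCl replicate 3 was the lowest of the 3 arrays in 19 of the 26 tested tau members, including all 6 called higher. NaCl replicate 2 was the highest in 15, including 5 of those 6. The other groups were uneven too. ABA replicate 3 was the lowest ABA array in 16 of the 26 and ABA replicate 2 the highest in 14. Control replicate 1 was the highest control array in 14 of 24. Shares over all genes are not given here, so this order cannot be read as particular to the tau class or to NaCl. The tau median level was 9.41, 10.07 and 8.39 on the NaCl arrays, 9.20, 9.06 and 8.99 on the ABA arrays and 8.90, 8.59 and 8.46 on the control arrays. GSTU25 ranged the most of the tau class, at 7.27, 10.15 and 4.93 in NaCl, and GSTU24 read 11.01, 13.88 and 10.15. The median SD over the tested members was 0.58 on the NaCl arrays, 0.29 on the ABA arrays and 0.49 on the control arrays, beside 0.29, 0.22 and 0.26 over all genes.

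Without NaCl replicate 3, 12 tau members were called higher against control in place of 6, the additions being GSTU3, GSTU8, GSTU12, GSTU22, GSTU24 and GSTU25, and the phi counts stayed at 5 lower and 0 higher. The share of all genes called in that fit is not given here, so the added calls cannot be read as particular to the tau class. Within NaCl, 5 of 6 tested root markers were highest on NaCl replicate 1 and none on NaCl replicate 2, and ESB1 (1.80) and COBL9 were the 2 called higher in NaCl. COBL9 entered the test through NaCl alone, the group where it was high, and only 1 of its control arrays was well above background. Shoot markers summed to between 312000 and 321000 on the NaCl arrays, 522000 and 527000 on the ABA arrays and 415000 and 568000 on the control arrays, with CA1 (-3.60) and RBCS1A (-1.12) called lower in NaCl. The flower markers AP3, PI and AG summed to 51.8, 40.5 and 2800 on the NaCl arrays, 39.5, 22.9 and 58.8 on the ABA arrays and 14.3, 198 and 27.9 on the control arrays, so that NaCl replicate 3, the low array of the tau class in NaCl, was the high one for flower markers. The part of tissue make-up in the members' changes was not tested.

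The remaining glutathione S-transferase genes, of the zeta, theta, lambda, dehydroascorbate reductase and TCHQD classes, had no call in NaCl or in ABA against control among 11 tested, and DHAR3, the plastid enzyme, was lower in NaCl than in ABA (-1.11, adjusted p = 0.00165). Of 9 tested genes that make, recycle or break down glutathione, 4 were lower in NaCl and none higher: GGCT2;1 (-2.05, without the marked spot on NaCl replicate 1), GSH2 (-1.71), GGP1 (-1.35) and GR2 (-1.22). GSH2, glutathione synthetase, was the sole gene of this list called in ABA, at 11.80, 12.01 and 11.67 on the NaCl arrays, 12.04, 12.15 and 12.78 on the ABA arrays and 13.60, 13.22 and 13.79 on the control arrays. Every treated array was below every control array, and the log2 fold change was -1.21 in ABA (adjusted p = 0.0490). GSH1, which makes the first bond of the peptide, had 0.54 in NaCl (adjusted p = 0.469).

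Among 7 tested glutathione peroxidase-like genes, GPX7 was the call in NaCl, at -4.02 (adjusted p = 0.00115), with 2 NaCl arrays well above background and control replicate 1 left out as non-uniform or outlying. The vacuolar pumps of glutathione conjugates, ABCC1 to ABCC4, lay between 0.09 and 0.54 in NaCl with no call, and so did the regulators TGA2, TGA5, TGA6 and SCL14, which drive induction of tau members by foreign chemicals, between 0.25 and 0.87. Of 7 genes outside the family that respond to such chemicals, ANAC032 was called higher in NaCl (1.44, adjusted p = 0.00142) and in ABA (1.36, adjusted p = 0.0186), and OPR1 lower in NaCl (-1.55, adjusted p = 0.0106). CYP81D8, at 10.60, 13.35 and 11.77 on the NaCl arrays, 9.39, 10.25 and 9.12 on the ABA arrays and 10.76, 9.22 and 9.74 on the control arrays, was called higher in NaCl than in ABA (2.32, adjusted p = 0.0339). As in 5 of the 6 tau members called higher, NaCl replicate 2 was its highest array in NaCl. Its lowest was NaCl replicate 1, while in all 6 of those members it was NaCl replicate 3.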

How the data were processed

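Spot intensities had been made by the authors with Agilent Feature Extraction (version 10.7.3.1 per the file headers), which subtracts background and removes spatial trends without scaling between arrays. The deposited log2 values of the whole series, quantile-normalized by the authors with NaCl on another distribution than control and ABA, served only as an alternative for ABA minus control. Probes carry marks per the file headers for background, saturation and uniformity, given as a 0 or 1 score.

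Control spots and spots marked non-uniform or as population outliers (4 of the members' spots) were left out. The log2 intensities were quantile-normalized over 9 arrays. Probes had to be well above background on every array of some group, and a gene was read from its brightest remaining probe. Probes were matched to loci through RefSeq accessions (34392 of 43603 probes, 25426 loci). NaCl minus control, ABA minus control and NaCl minus ABA came from 1 limma fit without a block (limma 3.58.1, R 4.3.3, the R package data.table at version 1.17.8), checked on simulated data. Where no array of a group was above background, the fold is a bound against the lowest signal called above background. For GSTU14 and GSTF13 it is not a strict bound, since not all their NaCl arrays were above background. Neighbouring members have at most 1 other protein-coding gene in between in RefSeq. Figures used Python 3.11.15, pandas 2.3.3 and matplotlib 3.10.9.

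Members and gene lists were chosen with earlier results of these data known. Named in full are members called in a comparison, the 4 largest by size in ABA minus control, bounds and members with a textbook role, and further genes of other lists when called, at most 4 a list. SUR1, GSTU18, the values of GSTU24 and GSTU25 on single arrays, the array order of the anthocyanin genes, and genes given as not called were added after their values were seen. Alternatives covered scaling, background correction, filters, marked spots, probe choice, samples in the fit, blocks, the test and single arrays. The number of arrays limits the precision.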

Additional observations from a re-analysis of the deposited data

How the results depend on the processing

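Counts are of members called higher or lower. In this section calls over all genes are given for the scaling settings. They are also given for higher calls in NaCl minus ABA with normexp background and at an unadjusted limma p. Counts under the other alternatives, including fits that left out 1 array, have no such share beside them. Without scaling of the arrays, 16 were lower in NaCl than in control, 21 lower in NaCl than in ABA and 4 higher in ABA than in control, while the tau median was 0.76 in ABA minus control and the phi median -2.20 in NaCl minus ABA; the median of all genes then moved to -0.30, 0.48 and -0.78 in NaCl minus control, ABA minus control and NaCl minus ABA. Over all genes 4003 were then lower in NaCl than in control, 8196 lower in NaCl than in ABA and 1341 higher in ABA than in control, against 3083, 2437 and 192 with quantile scaling. With 75th percentile scaling 1 member was higher in ABA than in control, and over all genes 2663 were higher and 2538 lower in NaCl than in control, against 2285 and 3083 with quantile scaling. In ABA minus control 1 member was also higher with the filter on all 9 arrays, with a fit of the 2 groups, with the methods' t-test at an unadjusted p and with the authors' normalized values, and 4 with limma at an unadjusted p. For members higher in NaCl than in ABA the count was 2 with normexp background, 2 with the filter on all 9 arrays and 8 at an unadjusted limma p. Over all genes 1533 were higher in NaCl than in ABA with normexp background and 2553 at an unadjusted limma p, against 2270 in the main fit. The slide as a random block gave 11 higher in NaCl minus control, 4 in ABA minus control and 9 in NaCl minus ABA. The slide correlation in that fit was negative, at -0.34. The NaCl arrays lay on 1 slide and the control arrays on another, so the fit cannot separate slide from treatment. Its higher counts add no evidence. After adjustment the methods' t-test left 0 higher and 2 lower in NaCl minus control, and 0 higher and 3 lower in NaCl minus ABA. Without control replicates 1 and 2, an alternative chosen after seeing the data that leaves 1 control array assumed to vary like the others, 1 member was higher in NaCl and the tau median in ABA minus control was 0.47. The cause of these shifts was not tested.

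Leaving out 1 array at a time gave 4 to 12 members higher and 10 to 12 lower in NaCl minus control, 0 to 1 higher in ABA minus control, and 4 to 10 higher and 11 to 13 lower in NaCl minus ABA, the highest counts of higher members coming without NaCl replicate 3. The tau median in ABA minus control lay between 0.023 and 0.462, the higher value without control replicate 1, and in NaCl minus ABA it changed sign, between -0.42 and 0.52. In these fits 3 of the 6 higher and 8 of the 10 lower members of NaCl minus control were called every time. With the replicate number as a block (replicate block), 5 members were higher and 10 lower in NaCl minus control, GSTU28 being lost (adjusted p = 0.0716), and no other count changed. Deviations of the arrays from their group means correlated between -0.28 and 0.23 for same-numbered arrays of different groups and between -0.32 and 0.29 for other pairs. The numbers were therefore not taken as pairs. For single members, 2344 of 2575 values under alternatives kept their direction and side of the threshold, and 170 crossed the threshold. Most of these values were not called in the main fit, so the total says little about the calls. In NaCl minus control, GSTU1 lost its call under 11 of 23 alternatives, GSTU28 under 9 and GSTU19 under 6. GSTF6 and GSTU23 kept theirs under all 23.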
